A study of Homo sapiens with 2 samples.

Results

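The genes examined were 10 regulators of early embryonic and fetal programmes, which include proteins called oncofetal because many tumours make them again. They were LIN28A, LIN28B, SOX2, POU5F1, NANOG, SALL4, IGF2BP1, IGF2BP2, IGF2BP3 and HMGA2. They were taken by symbol, not by a threshold on their values, and all 10 had a row among the 57736 genes of both deposited tables. Poly(A)+ RNA of untreated, wild type HEK293T cells was sequenced in 2 replicates, with 50-base reads. HEK293T is an established line from embryonic kidney in which the SV40 large T antigen is present. The cells were kept at 37°C in 5% CO2, in DMEM with 10% FBS, and taken at 80% confluency. Both replicates belong to this 1 group, so no condition was compared with another. The labels do not say whether the replicates were separate cultures, so the spread between them may be technical.

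LIN28A and LIN28B are RNA-binding proteins that bind let-7 precursors and block their maturation, and let-7 in turn represses mRNAs that carry matches to its seed. SOX2, POU5F1 (also called OCT4), NANOG and SALL4 are transcription factors of the pluripotent state. IGF2BP1, IGF2BP2 and IGF2BP3 bind and stabilise mRNAs, IGF2BP1 and IGF2BP3 mainly in fetal tissues, and HMGA2 is a fetal chromatin protein that binds AT-rich DNA.

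The let-7 family is shown because LIN28B, HMGA2 and the IGF2BP genes are known let-7 targets. In the RefSeq table of mature human miRNAs 11 had the seed of let-7a at bases 2 to 8. In 4 of them, written as RNA, the seed is in capitals.
hsa-let-7a-5p: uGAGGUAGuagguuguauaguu
hsa-let-7d-5p: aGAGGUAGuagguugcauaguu
hsa-let-7i-5p: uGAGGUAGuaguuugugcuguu
hsa-miR-98-5p: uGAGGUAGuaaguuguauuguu
These 4 share the seed and differ in the bases after it, and let-7d also in the first base.

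A seed match was CTACCTC, the complement of bases 2 to 8, or TACCTCA, the complement of bases 2 to 7 followed by A. Where both overlapped in CTACCTCA they were counted as 1 match. Matches were searched on the transcript strand in the 3′ UTR of the canonical transcript in the GRCh37 annotation. The 10 genes held 23 matches in 7 genes, against 15.5% of 18479 protein-coding genes with at least 1. HMGA2 had 7 matches in a 3′ UTR of 2999 nt, and LIN28B and IGF2BP1 had 5 each, in 4549 and 6701 nt. IGF2BP2 had 3 matches in 2401 nt, and LIN28A, SALL4 and IGF2BP3 had 1 each. SOX2, POU5F1 and NANOG had none in these windows of 1122, 264 and 4051 nt.

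Longer 3′ UTRs hold more matches by length alone, so each gene was set beside genes whose 3′ UTR was 0.8 to 1.25 times as long. Of 2292 such genes for HMGA2 25.9% had a match and 0 others had as many as 7. Among all 18479 genes 1 other had as many, TRIM71 with 8, a let-7 target that encodes an embryonic ubiquitin ligase. For LIN28B 38.2% of 1530 genes had a match and 1 other had at least 5. For IGF2BP1 51.2% of 731 genes had a match and 4 others had at least 5. For IGF2BP2 21.8% of 2489 genes had a match and 6 others had at least 3. A single match, as in LIN28A, SALL4 and IGF2BP3, was found in 28.3%, 19.2% and 20.0% of genes of like length, at least 1 being counted. A match is a description of the sequence and does not show that the site is used in these cells.

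The matches that have both the complement of bases 2 to 8 and the A are printed in windows of 30 bases, since these are the longest seed matches. They are written as DNA of the transcript strand, with the match in capitals and with GRCh37 coordinates. All lie in the 3′ UTR of the last exon of the gene named.
LIN28B, chr6:105526691-105526720, plus strand: ggttgcaaagtCTACCTCAtgcaagtatag
LIN28B, chr6:105529300-105529329, plus strand: acagcaaaaggCTACCTCAtagttgataca
HMGA2, chr12:66357082-66357111, plus strand: acgttcgatttCTACCTCAgcagcagttgg
IGF2BP1, chr17:47128427-47128456, plus strand: tgcgaagtaaaCTACCTCAaggtatgaagt
IGF2BP1, chr17:47131064-47131093, plus strand: agtgctagtaaCTACCTCAcagagccccag
IGF2BP1, chr17:47131718-47131747, plus strand: aaatggattaaCTACCTCAatccttacagt
IGF2BP2, chr3:185361997-185362026, minus strand: cacagaagaagCTACCTCAggtgtttttac
IGF2BP3, chr7:23351403-23351432, minus strand: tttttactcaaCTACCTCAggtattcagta
SALL4, chr20:50399451-50399480, minus strand: ctttaatttatCTACCTCAtttatttttta
LIN28A, chr1:26753843-26753872, plus strand: agcctattgaaCTACCTCAtttttgccaat
In LIN28B the first of these began 44 nt after the stop codon and in HMGA2 the match began 21 nt after it. The other matches of this kind began between 560 nt (IGF2BP3) and 4923 nt (IGF2BP1) after the stop codon.

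**Figure D1:**
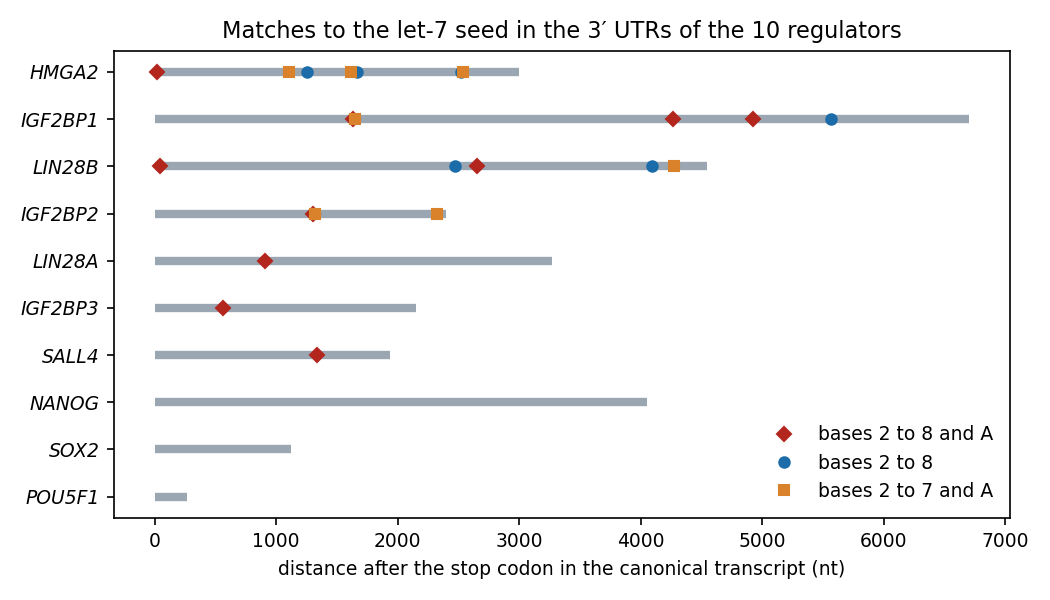
Seed matches of let-7 along the 3′ UTR of the canonical transcript of each regulator, with distance from the stop codon in nt on the horizontal axis and 1 grey bar per gene to scale. Diamonds mark the complement of bases 2 to 8 with the A, circles the complement of bases 2 to 8 and squares the complement of bases 2 to 7 with the A. HMGA2 has 7 marks, LIN28B and IGF2BP1 have 5, and SOX2, POU5F1 and NANOG have 0.

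The level of each gene was measured as TPM, a length-corrected share of all transcripts in a library. Genes were called detected when TPM was 1 or more in each replicate, which held for 7 of the 10 regulators and by 63.7% of 19391 protein-coding genes. The 7 were all 3 IGF2BP genes, LIN28B, HMGA2, SOX2 and SALL4, whereas POU5F1, LIN28A and NANOG were not detected by this rule. The share detected was thus near that of all protein-coding genes, and the levels of the 10 ranged widely. The median level of the 10 was 3.89 as log2(mean TPM + 1), beside 2.91 over all protein-coding genes and 4.47 over the detected ones. Their 10 TPM values added up to 338.1 in replicate 1 and 319.3 in replicate 2, and the IGF2BP genes made up most of this.

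**Figure D2:**
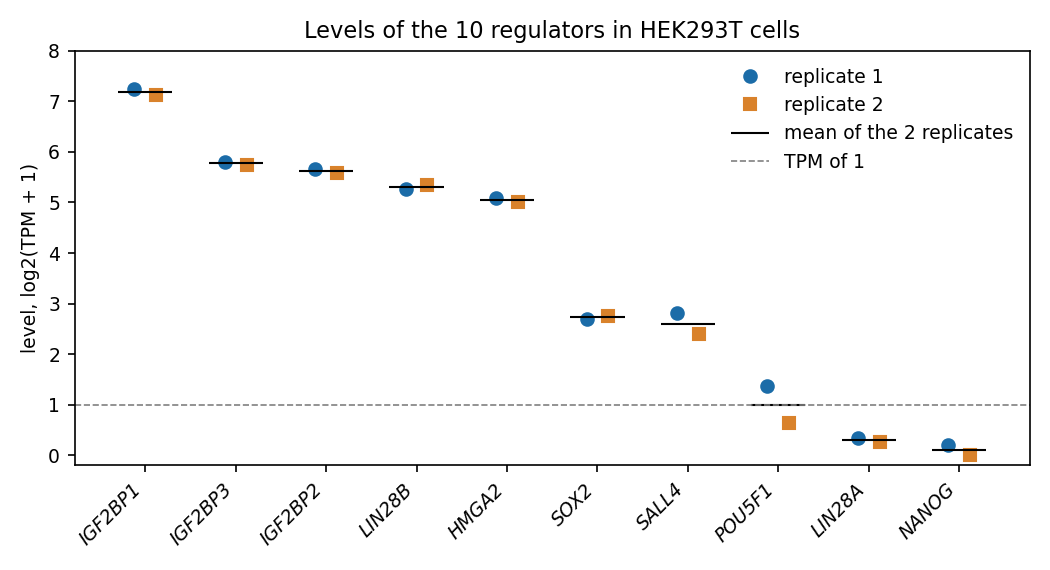
Level of each regulator as log2(TPM + 1), with circles for replicate 1, squares for replicate 2, a line for the mean of both, and a dashed line at a TPM of 1. Of the genes 5 lie at or above a TPM of 31.3 in both replicates, SOX2 and SALL4 lie between 4.27 and 5.99, and POU5F1 stands on both sides of the dashed line.

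Among the mRNA-binding proteins, IGF2BP1 had the highest level of the 10 genes. Its gene spans 58761 bp on the plus strand (ENSG00000159217, chr17:47074747-47133507), and its TPM was 149.5 in replicate 1 and 138.0 in replicate 2, or 143.7 ± 8.19 (SD, n = 2). It ranked 820 of 19391 protein-coding genes, above 95.8% of them. IGF2BP3 (ENSG00000136231, chr7:23349828-23510110, minus strand) had TPM values of 54.8 and 52.7, or 53.7 ± 1.48 (SD, n = 2). IGF2BP2 (ENSG00000073792, chr3:185360918-185542830, minus strand) had values of 49.9 and 46.9, or 48.4 ± 2.14 (SD, n = 2). IGF2BP3 lay above 85.5% and IGF2BP2 above 83.9% of protein-coding genes.

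The IGF2BP1 share of the summed TPM of the 3 genes was 58.8% and 58.1% in the replicates, with 21.5% and 22.2% for IGF2BP3 and 19.6% and 19.7% for IGF2BP2. IGF2BP1 stood 3.0 and 2.9 times above IGF2BP2 in TPM, with 95% counting intervals of 2.82 to 3.19 and 2.76 to 3.14. IGF2BP3 stood 1.10 and 1.12 times above IGF2BP2, with intervals of 1.0 to 1.2 and 1.03 to 1.23. The replicate values of these 2 genes did not overlap, but the credibility bounds deposited for their TPM did. The order of IGF2BP2 and IGF2BP3 depended on the correction for length, since in estimated counts, before it, IGF2BP3 had 0.795 and 0.812 times the count of IGF2BP2.

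Of the let-7 blockers, LIN28B was expressed and LIN28A was near the limit of the data. LIN28B (ENSG00000187772, chr6:105384491-105531207, plus strand) had TPM values of 37.4 and 39.8, or 38.6 ± 1.74 (SD, n = 2), from 1521 and 1561 estimated counts. LIN28A (ENSG00000131914, chr1:26737308-26756219, plus strand) had TPM values of 0.27 and 0.20, from 8 and 5 counts. The 95% exact Poisson intervals of these counts were 3.45 to 15.8 and 1.62 to 11.7. Such an interval excludes 0 for any count of 1 or more, so these bound the counts of LIN28A and do not show expression. LIN28B held 99.3% and 99.5% of the summed TPM of the pair. The TPM ratio of LIN28B to LIN28A was 138.4 in replicate 1 and 199.2 in replicate 2. Its 95% counting intervals were 69.8 to 320.2 and 83.4 to 601.7, so the ratios of the replicates lay within each other's error.

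HMGA2 (ENSG00000149948, chr12:66218240-66360071, plus strand) had TPM values of 33.1 and 31.3, or 32.2 ± 1.31 (SD, n = 2), above 76.2% of protein-coding genes. Its values lay below both of LIN28B, though the deposited credibility bounds of the pair overlapped. HMGA1, its paralog and also an AT-hook chromatin protein, had TPM values of 329.9 and 321.5. HMGA1 was therefore 9.96 and 10.3 times higher, with counting intervals of 9.24 to 10.7 and 9.53 to 11.1.

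The 4 pluripotency factors were lower than the IGF2BP genes, LIN28B and HMGA2 in both replicates. SOX2 (ENSG00000181449, chr3:181429713-181432224, plus strand), a gene of a single exon, had TPM values of 5.50 and 5.73, or 5.62 ± 0.163 (SD, n = 2). SALL4 (ENSG00000101115, chr20:50398870-50419060, minus strand), a zinc-finger factor, had values of 5.99 and 4.27, or 5.13 ± 1.22 (SD, n = 2). The replicate ranges of SOX2 and SALL4 overlapped, and SALL4 was the higher in replicate 1 and SOX2 in replicate 2.

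POU5F1 (ENSG00000204531, chr6:31132114-31148508, minus strand) had TPM values of 1.58 and 0.56, from 20.1 and 6.16 estimated counts. It passed a TPM of 1 in replicate 1 and not in replicate 2, and the exact Poisson intervals of its counts, 12.2 to 30.9 and 2.2 to 13.1, overlapped. NANOG (ENSG00000111704, chr12:7940390-7951742, plus strand) had a TPM of 0.15 in replicate 1 and 0 in replicate 2, from 0.58 and 0 counts. A count of 0 allows up to 3 counts, which at the transcript length assigned to NANOG in replicate 2, 1092 nt, is a TPM of 0.40. In replicate 1, at 561 nt, the count rounded to 1 had an exact Poisson interval of 0.0253 to 5.57 counts. The deposited upper bounds of its TPM were 1.41 and 1.42. NANOG was therefore not detectable at this depth, and these limits do not exclude a TPM near 1. No fold between NANOG and another gene is given for this reason.

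In order of mean TPM the genes were IGF2BP1, IGF2BP3, IGF2BP2, LIN28B, HMGA2, SOX2, SALL4, POU5F1, LIN28A and NANOG. The largest gap among the detected ones lay between HMGA2 and SOX2, a ratio of 5.73. Of the 9 pairs of neighbours SOX2 and SALL4 had overlapping replicate values and the other 8 did not. By the deposited credibility bounds 4 pairs overlapped, which were IGF2BP3 with IGF2BP2, LIN28B with HMGA2, SOX2 with SALL4 and LIN28A with NANOG. These bounds surround a posterior mean and not the TPM printed here, and they left out the TPM itself in both replicates for LIN28B (32.8 to 36.3 and 34.9 to 38.5) and IGF2BP1 (131.6 to 148.4 and 122.2 to 137.9).

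**Figure D3:**
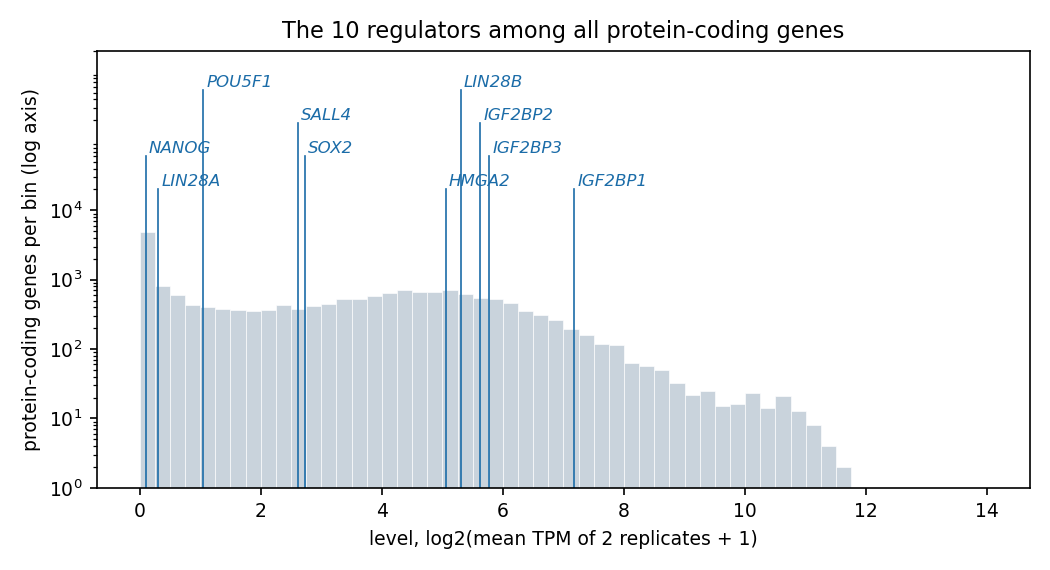
Histogram of the levels of 19391 protein-coding genes as log2(mean TPM of 2 replicates + 1), with the number of genes per bin on a log axis, and a line at the level of each regulator. IGF2BP1 stands at 7.18, the IGF2BP2, IGF2BP3, LIN28B and HMGA2 lines between 5.05 and 5.77, SOX2 and SALL4 at 2.73 and 2.62, and NANOG and LIN28A in the lowest bins.

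Whether a gene differed between the replicate libraries was tested by an exact two-sided binomial test on rounded counts, which compares these 2 libraries and not conditions. After Benjamini-Hochberg adjustment over 17920 genes 3.88% differed between the libraries. Of the 9 regulators with enough counts to be tested 0 differed, and 2 had an unadjusted p under 0.05. These were POU5F1, with a log2 ratio of replicate 2 to replicate 1 of -1.58 (exact p = 0.010, adjusted p = 0.15), and LIN28B, with a log2 ratio of 0.12 (exact p = 0.0267, adjusted p = 0.27). The absolute log2 ratio of the other detected members was at most 0.08, in SOX2. NANOG was not tested.

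The TPM values rest on the mean length of the transcripts that the authors' software assigned reads to. That length was 6312 and 6730 nt for IGF2BP1 in the replicates, or 71.8% and 76.5% of its longest annotated coding transcript of 8796 nt. For IGF2BP3 it was 2284 and 2363 nt, or 53.4% and 55.3% of 4274 nt, and for IGF2BP2 3134 and 3251 nt, or 73.2% and 75.9% of 4283 nt. Only 1 of the 17 IGF2BP3 transcripts listed, that of 4274 nt, is annotated as coding. The others, of 452 to 2988 nt, are retained introns, targets of nonsense-mediated decay or lack a defined coding sequence. The TPM of IGF2BP3 therefore includes such transcripts, and the part of the coding one is not given. Since 4274 and 4283 nt are almost equal, the TPM order of IGF2BP3 and IGF2BP2 rests on the assigned lengths. A shorter assigned length gives a higher TPM for the same count. The count of IGF2BP1 was 7.65 and 7.56 times that of IGF2BP3, whereas its TPM was 2.73 and 2.62 times as high.

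The replicates differed most in assigned length for SALL4 among the detected genes, with 2063 and 2722 nt against a longest coding transcript of 5209 nt. Its counts were 90 and 82, so the log2 ratio of its counts, scaled for depth, was -0.06 while its TPM values were 5.99 and 4.27. LIN28B has 1 transcript in the deposited tables, so its TPM values do not move with this assignment. SOX2 has 2 and had 2500 nt in both replicates, so the assignment did not add to the difference between its replicates. LIN28A was assigned 4008 nt in replicate 1 and 3458 nt in replicate 2.

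The let-7 seed matches lay in some annotated transcripts of a gene and not in others. All 5 matches of IGF2BP1 lie in the 8796 nt transcript, and the other annotated coding transcript, of 1317 nt, has no annotated 3′ UTR in which a match could lie. The 7 matches of HMGA2 lie in a transcript of 4117 nt, and the other 6 annotated coding transcripts, among them the longest at 8094 nt, have none. A further HMGA2 transcript of 485 nt, annotated as a target of nonsense-mediated decay, has 1. The assigned length of HMGA2 was 3436 and 3756 nt. Of the 4 coding transcripts of IGF2BP2 3 have a match, the other having an annotated 3′ UTR of 30 nt, and both of LIN28A have it. The deposited values are per gene, so the level of each transcript is not given by them.

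**Figure D4:**
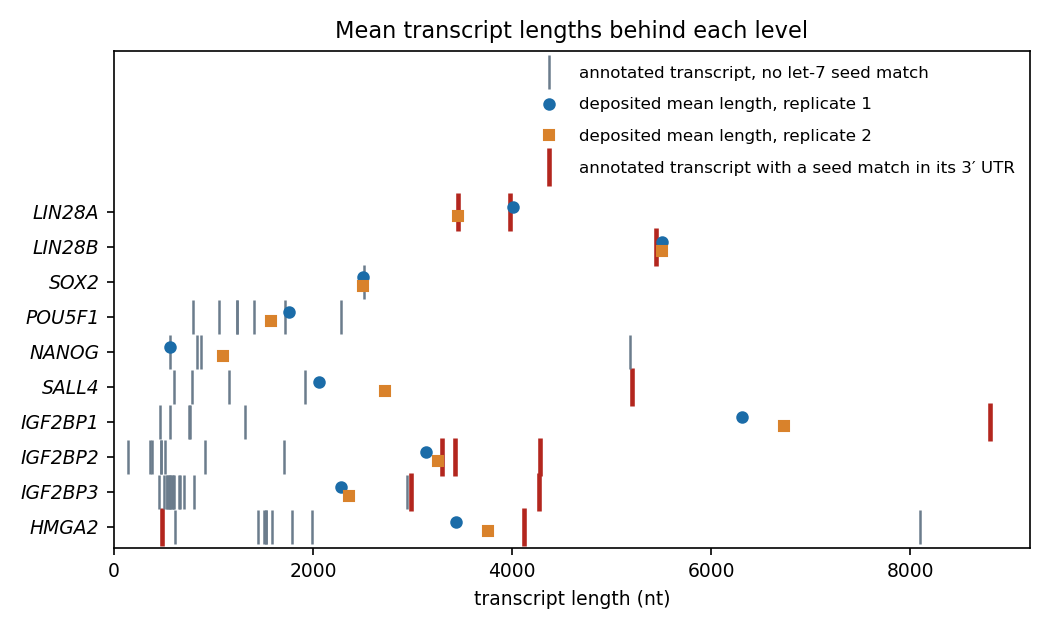
Length in nt of each annotated transcript of the 10 regulators that the deposited tables list, as vertical ticks, red where the 3′ UTR holds a let-7 seed match. Of the 2 SOX2 transcripts listed, 1 was found in the annotation used and is drawn. Circles and squares give the mean length deposited for replicates 1 and 2. For IGF2BP1 the deposited 6312 and 6730 nt lie below the 8796 nt transcript with matches and above all others.

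Some reads could belong to other genes as well. The deposited posterior SD of the count, which describes how reads that fit several genes were shared out, was below 1.2% of the count for all 7 detected members in both replicates. It was largest among them for IGF2BP3, at 8.92 and 9.92 counts of 912.9 and 875.6. MALSU1, which encodes a mitochondrial ribosome factor, overlaps IGF2BP3 by 1521 bp at its 3′ end on the opposite strand, and its posterior SD was almost the same, 8.90 and 9.91 counts of 336.7 and 303.1. For IGF2BP1 the SD was 4.78 and 4.99 counts, the same as for AC105030.1, a miRNA gene of 85 bp inside it with 8.55 and 11.1 counts. The sources used here do not say whether reads were counted by strand.

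For the weak pluripotency factors, copies elsewhere in the genome had reads in the range of those of the gene or above. POU5F1P4, a processed pseudogene of POU5F1 (chr1:155402969-155404053, plus strand), had TPM values of 2.88 and 2.45, from 15.1 and 13.9 counts. Both values were above those of POU5F1 itself, 1.58 and 0.56, for which the posterior SD was 7.76% and 11.2% of the count. TCF19 overlaps POU5F1 by 2823 bp on the opposite strand and had 623.8 and 570.9 counts. NANOGP5 (chr9:102937460-102938336, plus strand) had TPM values of 2.75 and 2.02, from 17 and 12 counts with a posterior SD of 0. Of 25 annotated copies of the 10 genes in the tables, POU5F1P4 and NANOGP5 were the 2 with at least 10 counts in sum.

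Antisense transcripts of the members were few. HMGA2-AS1 had 27 and 34 counts (TPM 1.43 and 1.04), and IGF2BP2-AS1 had 12 and 8 counts (TPM 2.33 and 0.74). A pseudogene inside IGF2BP1 on the same strand, ENSG00000251550, had 14.5 counts in replicate 1 and 1 in replicate 2. Another inside IGF2BP3, ENSG00000232627, had 9 and 4.

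Genes of let-7 processing and uridylation were expressed, among them genes of the maturation that LIN28 proteins block. All 12 of a list of let-7 processing and uridylation factors were detected, with a median TPM of 49.2. This count and those of the lists below stand beside 63.7% of all protein-coding genes. The lists of IGF2BP-bound RNAs and of oncofetal genes also hold H19, a non-coding RNA. The highest were KHSRP, which binds let-7 precursors, with TPM values of 636.5 and 574.5, XPO5, which exports precursors from the nucleus, with 123.9 and 108.0, and DROSHA, which cuts primary transcripts, with 113.5 and 103.3. The terminal uridylyltransferases that LIN28A recruits were also detected, TUT4 at 66.4 and 62.2 and TUT7 at 15.3 and 16.1. LIN28A itself was not detected by the rule used here. KHSRP was the 1 gene of this list that differed between the libraries (log2 ratio of -0.10, adjusted p = 0.00019 by the exact binomial test).

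The let-7 miRNAs themselves were not measured. All 12 let-7 and miR-98 hairpin genes had 0 counts in both replicates, in libraries made from poly(A)+ RNA, which mature miRNAs lack. Of their host genes in the list HUWE1 had TPM values of 172.6 and 172.2, WDR82 81.1 and 81.3, and MIR99AHG 1.54 and 1.92, whereas MIR100HG had 0 counts in both replicates.

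Other reported let-7 targets were detected in 19 of 20 cases, with a median TPM of 33.4. HMGA1, RRM2 (ribonucleotide reductase) and CDC25A (a cell cycle phosphatase) were the highest, the latter 2 at 167.7 and 187.5 and at 86.4 and 82.2. MYCN had TPM values of 0.10 and 0.27. TRIM71 was detected at 5.11 and 4.97.

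The wider pluripotency network was mostly low. Of 25 genes 11 were detected, with a median TPM of 0.25 over the list. TBX3, a T-box factor, had TPM values of 37.3 and 40.2, and DNMT3B, a DNA methyltransferase of early development, had 23.1 and 20.3. PRDM14 and ZFP42, both used as markers of pluripotent cells, were among 6 genes with 0 counts in both replicates.

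Of the NuRD complex, which SALL4 is known to bind, all 13 genes listed were detected, with a median TPM of 149.4. RBBP4 had TPM values of 384.5 and 378.7, RBBP7 318.7 and 353.4, and HDAC2 249.5 and 237.4, all far above SALL4. Of the SALL paralogs SALL2, with 37.6 and 37.9, and SALL1, with 22.2 and 25.2, were also above it, whereas SALL3, with 4.21 and 4.60, overlapped the values of SALL4. SALL4 made up 8.56% and 5.94% of the summed TPM of the 4 genes. Of the SOX2 relatives SOX1 had TPM values of 0.07 in both replicates, and SOX3 had 0.26 and 0.41, whereas SOX21 was detected at 2.53 and 2.83.

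All 5 of a list of known protein partners of IGF2BP1, most of them from its mRNA-stabilising complex, were detected, with a median TPM of 251.2. YBX1 had TPM values of 1068.4 and 976.4, HNRNPU 652.3 and 635.4, and DHX9 247.8 and 254.5, each above IGF2BP1. YBX1, which carries a cold-shock domain as the LIN28 proteins do, differed between the libraries (adjusted p = 4.7e-05 by the exact binomial test, log2 ratio of -0.10).

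RNAs reported to be bound by the IGF2BP proteins were detected in 8 of 9 cases. ACTB (beta-actin), long known to be bound by IGF2BP1, had TPM values of 3305.2 and 3129.1, PABPC1 had 1694.7 and 1680.1, and CTNNB1 (beta-catenin) had 228.6 and 230.8. CD44 had 0.40 and 0. IGF2, from which the family takes its name, was detected at 3.48 and 2.51, so its mRNA was lower than those of all 3 IGF2BP genes.

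Other oncofetal genes were less uniform, with 6 of 13 detected and a median TPM of 0.59. GPC3, a fetal proteoglycan, had TPM values of 56.3 and 51.6, in the range of IGF2BP3. TPBG had 8.48 and 9.68 and PLAC1 had 9.68 and 6.26. AFP, the fetal serum protein, had 0 and 0.15, and DLK1 had 0 in both.

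**Figure D5:**
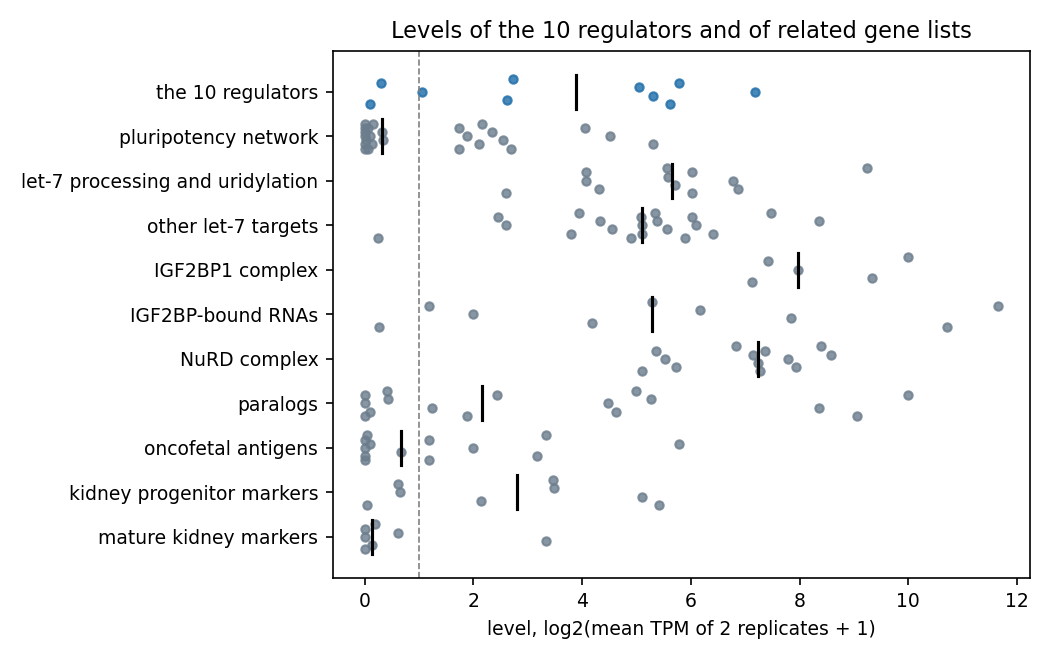
Level of each gene as log2(mean TPM of 2 replicates + 1), 1 point per gene, for the 10 regulators, 8 related lists and 2 sets of kidney markers, with a black line at the median of each list and a dashed line at a TPM of 1. The 12 let-7 processing genes, the 5 IGF2BP1 partners and the 13 NuRD genes lie to the right of the dashed line, whereas the pluripotency network has 14 of 25 genes that did not pass detection.

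The label of the cells was set beside markers of kidney, fibroblasts and blood. Neuronal markers were not included, although the paper relates HEK293T cells to neurons. Of 9 kidney progenitor markers listed, LHX1 could not be matched to a single gene identifier and was left out. Of the other 8, 5 were detected, among them SIX2 with TPM values of 33.2 and 33.3 and WT1 with 10.0 and 10.5. PAX8 (0 and 0.05) and GDNF (0.56 and 0.58) were not. Of 7 mature kidney markers 1 was detected, LRP2 with 8.28 and 9.96, and CUBN (0.07 and 0.21) and AQP1 (0.25 and 0.81) were not. Of 7 fibroblast markers 1 was detected in both replicates, COL1A1 with 10.3 and 7.51, but 3 passed when replicate 2 was taken alone, where COL3A1 (0.95 and 1.63) and LUM (0.85 and 1.4) did too. Of 6 blood markers 2 were detected, among them HBA1 with 4.1 and 4.0. COL1A2, PTPRC and CD14 were not detected. The part of other cell types in the levels of the members was not tested, and fewer cells that express a gene cannot be told apart from less RNA per cell in bulk samples. The libraries held 10593491 and 10104118 estimated counts, in which 3 counts are 0.283 and 0.297 CPM.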

How the data were processed

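Per the study's methods and the submitters' processing notes, reads were trimmed with Trimmomatic 0.36 and aligned with STAR 2.6.1c to GRCh37 (hg19). The methods name featureCounts, but the deposited columns are those of RSEM 1.3.1, also listed in the notes. Estimated counts as deposited share out reads that fit several genes. TPM and FPKM values were deposited by the authors, scaled for transcript length. Of the deposited scores, the posterior SD of counts describes the sharing of reads. The credibility bounds of TPM also vary with the number of reads and surround a posterior mean TPM that is deposited too. A table of pooled reads was not used for results. Depth and its limits are given with the results.

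GENCODE release 44 in GRCh37 coordinates gave the symbols and positions and matched 96.1% of the gene identifiers. Its transcripts can differ by some bases from those the authors used. The canonical transcript was used for the 3′ UTR in 17058 genes, all 10 regulators among them, and otherwise the one with the longest 3′ UTR. Mature miRNAs came from the RefSeq table (GRCh38.p14). All 23 seed windows were compared with the GRCh37 genome and matched it. Protein sequences were not analysed here.

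For each gene whose rounded counts summed to 10 or more, the replicates were compared by a two-sided exact binomial test (scipy 1.17.1) against TMM-scaled library sizes (edgeR 4.0.16 in R 4.3.3), and p-values were adjusted by Benjamini-Hochberg. In log2 ratios 0.5 was added to each count. The test was checked on simulated data. Counting intervals of ratios are exact binomial intervals rescaled by length, at 95%. Intervals cover counting error only, since reads copied by PCR are not independent.

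The members and lists were chosen with earlier results of these data known. From each list up to 3 detected genes with the highest mean TPM and up to 2 undetected genes in list order were named, besides the members and the copies and overlapping genes with 10 or more counts in sum. TUT4, TUT7, TRIM71, IGF2, SOX21, LUM, MIR100HG and the SALL paralogs were named after their values were seen. Some genes that this rule names are not reported here. Alternatives were other detection thresholds, pseudocounts, count scalings and filters, FPKM, posterior means and leaving out each replicate.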

Additional observations from a re-analysis of the deposited data

How the results depend on the processing

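Of 76 recomputed main values 58 stayed within the spread of the replicates or within 1.5 times the main count, 18 moved and 0 reversed. For member levels and within-family differences, leaving out 1 of 2 replicates cannot shift the mean beyond their SD. Those alternatives stayed by construction and do not test stability. The number of detected members ranged from 6 (TPM of at least 5) to 9 (TPM of at least 0.1), and was 7 without replicate 1 and 8 without replicate 2, POU5F1 being the gene that passed in replicate 1. No member differed between the libraries under any of the 4 alternatives run for that count, with 1 or 2 at an unadjusted p under 0.05. The 696 genes that differed became 448 with posterior mean counts and 71 of 8675 among genes with whole estimated counts in both replicates, where fewer genes were tested and 0.818% were called. The median level of 3.89 moved to 3.76 and 3.75 with pseudocounts of 0.1 and 0.01 and to 3.44 with FPKM, and ranged from 3.88 to 3.95 without a replicate. The log2 difference of LIN28B and LIN28A, 5.00 as the mean of both replicates, was 6.86 with a pseudocount of 0.1, 4.60 with FPKM and 4.83 with posterior mean TPM. With posterior mean TPM the difference of IGF2BP1 from IGF2BP2 was 1.39 in place of 1.55, from IGF2BP3 1.21 in place of 1.40, and that of IGF2BP3 from IGF2BP2 0.18 in place of 0.15. In posterior mean TPM the levels were 134.9 for IGF2BP1, 57.6 for IGF2BP3, 50.8 for IGF2BP2, 35.6 for LIN28B, 0.29 for LIN28A and 0.695 for NANOG, and the cause of these moves was not tested. NANOG, at 0.58 and 0 counts, stood above LIN28A by this measure, so the order of these 2 genes differed between the measures. Over the related lists 82 of 124 genes were detected, beside 63.7% of all protein-coding genes, and 65 to 88 under other thresholds. The 124 include the 12 let-7 and miR-98 hairpin genes, all with 0 counts, and other non-coding genes. These shares are therefore of unlike gene sets. No paired analysis was possible because both replicates are of 1 group.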
